A study of Mus musculus with 2 samples.

Results

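The miR-34 and miR-449 family was examined in small RNA of extracellular vesicles (EVs) isolated from the testes of adult C57/BL6 mice after dissociation of the tissue, so that EVs of different cell types were mixed. Both libraries stand for the same condition, in which proteinase K and RNase A were applied to the EVs ahead of RNA extraction, and no untreated or EV-free library was analysed here. The entries were all listed mature or hairpin miRNA IDs of mouse that name mmu-miR-34a, mmu-miR-34b, mmu-miR-34c, mmu-miR-449a, mmu-miR-449b or mmu-miR-449c, on either arm of the precursor. This gave 8 of 525 known miRNA entries, among 27065 entries in all. Known miRNA entries held 689004 of 21970654 listed counts in library 1 and 559053 of 24829208 in library 2. A further 4 entries (repeat, intergenic, intron and exon), which each sum the tags of a whole genome class, held 73.4% of listed counts in library 1 and 74.3% in library 2. Levels are counts per 1000000 listed counts of a library (CPM), given as mean ± SD of the 2 libraries. The labels number the libraries as replicates without saying that they came from separate animals, so their spread may be technical. With 1 condition, no test between groups was made. Intervals are exact, at the 95% level, and reflect the error of counting alone, because copies made by PCR are not independent molecules.

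MicroRNAs are cut from a hairpin precursor whose sides give a 5p and a 3p arm, and the arm loaded into an Argonaute protein pairs with target mRNAs mainly through its seed, bases 2 to 8. The miR-34 and miR-449 genes are grouped because their 5p arms share a seed. In mice, Mir34a is a well known target of p53. The Mir34b/Mir34c and Mir449 clusters are known from multiciliated epithelia and from male germ cells, and males lacking both clusters are infertile.

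The family came from 3 loci. Mir34a lies on chromosome 4 (GRCm38.p6, 150068454 to 150068555, plus strand), where its end overlaps the first bases of Gm37795, an unclassified transcript of GENCODE M21. Mir34c (51103034 to 51103110) and Mir34b (51103562 to 51103645) lie 451 bases apart on the minus strand of chromosome 9, inside an intron of Btg4, which is transcribed from the other strand. On chromosome 13, Mir449c (113035983 to 113036091) and Mir449a (113037534 to 113037624) lie 1442 bases apart in an intron of Cdc20b, on the same strand as that gene. These positions are those of RefSeq and GENCODE, since the deposited entries of known miRNAs carry none.

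Of the 8 entries, 7 matched a mature sequence of RefSeq (GRCm38.p6) by name, and the unmatched one is miR-34c-5p. They are shown 5′ to 3′ with the seed in capitals, because the levels below follow arms and seeds.
miR-34a-5p: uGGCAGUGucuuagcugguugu
miR-449a-5p: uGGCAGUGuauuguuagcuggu
miR-34b-5p: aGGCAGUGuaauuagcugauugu
miR-34b-3p: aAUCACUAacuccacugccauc
miR-34c-3p: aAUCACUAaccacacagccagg
miR-449c-3p: cAGUUGCUagcugcacuacccu
miR-449a-3p: cAGCUAACaugcgacugcucuc

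The first 3 share the seed GGCAGUG, which among the RefSeq mature sequences available here is otherwise found only in miR-449c-5p. These sequences do not include miR-34c-5p, so its seed could not be found in this search. Both 3p arms of the chromosome 9 cluster share AUCACUA, found in no other mature sequence of that table, and the 3p arms of Mir449a and Mir449c have a seed each of their own. The hairpins of the cluster are given next with the mature arms of the table in capitals, since the contrast between the libraries lies here.
Mir34b: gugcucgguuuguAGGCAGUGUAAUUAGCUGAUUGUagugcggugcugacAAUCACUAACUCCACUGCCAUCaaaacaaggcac
Mir34c: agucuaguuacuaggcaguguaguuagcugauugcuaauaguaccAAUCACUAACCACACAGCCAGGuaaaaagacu

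The letters GGCAGUG stand at bases 15 to 21 of the Mir34b hairpin and at bases 14 to 20 of that of Mir34c. Placed without gaps, miR-34b-5p fits the Mir34c hairpin with 2 mismatches over 23 bases, so short or mismatched tags of the 5p arms may have been split between miR-34b-5p and miR-34c-5p. The 3p arms are further apart, with 5 mismatches over 22 bases in either direction. Between the other loci, miR-34a-5p fits the Mir449a hairpin with 7 mismatches, and within the Mir449 cluster miR-449a-5p fits the Mir449c hairpin with 4.

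The family was an abundant group of known miRNA in testicular EVs. Its entries, with 71119 counts in library 1 and 61611 in library 2, summed to 3237 and 2481 CPM (mean 2859 ± 534, SD, n = 2). They made up 10.3% of known miRNA counts in library 1 (with an interval of 10.25% to 10.39%) and 11.0% of those of library 2 (10.94% to 11.10%), or 10.7% ± 0.494 (SD, n = 2). By the family names that the deposited tables give, mir-34 held place 3 of 185 families in both libraries, at 2312 ± 399 CPM, after let-7 and mir-743, a family of the testis-expressed X-linked cluster. The mir-449 family held place 7 in both libraries, at 548 ± 135 CPM, next to mir-378 at 566 ± 124 CPM, from which it did not differ beyond the spread of the libraries. In bulk vesicle RNA, fewer EVs from a cell type and less of a miRNA per EV cannot be told apart.

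By locus, miR-34a held most of the family. In libraries 1 and 2, Mir34a gave 2280 and 1494 CPM, the Mir449 cluster gave 643 and 452 CPM, and Mir34b with Mir34c gave 313 and 535 CPM. In shares of the family's counts, Mir34a held 70.4% (70.1% to 70.8%) in library 1 and 60.2% (59.8% to 60.6%) of those of library 2. The share of the Mir449 cluster was 19.9% (19.6% to 20.2%) and 18.2% (17.9% to 18.5%), and that of the chromosome 9 cluster was 9.68% (9.47% to 9.90%) and 21.6% (21.2% to 21.9%). Of the 3 loci, the share of the Mir449 cluster moved least. These shares add up to the whole family, so a change in 1 locus moves the shares of the others. The chromosome 9 cluster was the lowest locus in library 1 and lay above the Mir449 cluster in library 2, so the order of the lower loci was not stable across the libraries.

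**Figure D1:**
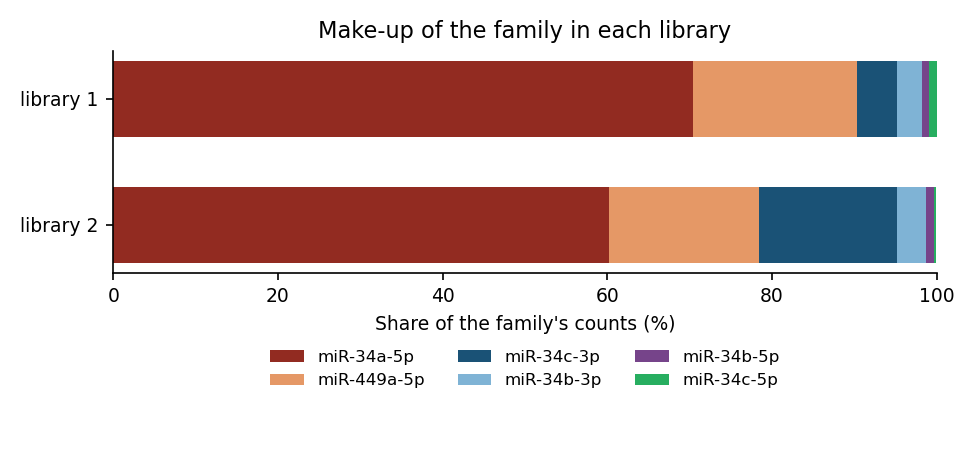
Share of the family's counts (%) held by the 6 arms of more than 100 counts in the mean, 1 bar for each library. miR-34a-5p holds 70.4% in library 1 and 60.2% in library 2, and miR-34c-3p 4.88% and 16.8%.

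The 5p arms of Mir34a and Mir449a, which carry the family's seed, came first. miR-34a-5p had 50099 counts (2280 CPM) in library 1 and 37101 (1494 CPM) in library 2, on average 1887 ± 556 CPM (SD, n = 2). This entry was the third known miRNA entry in each library, between let-7c-5p at 3197 ± 445 CPM and let-7b-5p at 1477 ± 140 CPM by mean level. miR-449a-5p had 14115 counts (642 CPM) in library 1 and 11196 (451 CPM) in library 2, on average 547 ± 135 CPM, and held place 10 in each library. Its neighbours by mean level were miR-378a-3p at 553 ± 114 CPM and miR-451a, the abundant miRNA of red blood cells, at 493 ± 192 CPM, and these 3 did not differ beyond their spread. The ratio of miR-34a-5p to miR-449a-5p, both with the GGCAGUG seed and a first base U, was 3.55 in library 1 and 3.31 in library 2. Both arms therefore kept nearly the same proportion to each other, although each had a lower CPM in library 2.

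miR-34b-5p and miR-34c-5p, the 5p arms of the chromosome 9 cluster, were far lower. miR-34b-5p had 585 counts (26.6 CPM) in library 1 and 558 (22.5 CPM) in library 2, on average 24.5 ± 2.94 CPM and rank 97 of 525. miR-34c-5p had 638 counts (29.0 CPM) in library 1 and 192 (7.73 CPM) in library 2, on average 18.4 ± 15.1 CPM and rank 110. The order of this pair turned round between the libraries, with miR-34c-5p higher in library 1 and miR-34b-5p higher in library 2. By mean level, miR-34b-5p lay between miR-497a-5p at 24.7 ± 3.43 CPM and miR-7223-5p at 24.5 ± 1.15 CPM, and miR-34c-5p between miR-741-5p at 19.0 ± 2.64 CPM and miR-342-5p at 18.0 ± 8.42 CPM. None of these arms differed from its neighbours, or from each other, beyond the spread of the libraries. miR-34a-5p exceeded miR-34b-5p 85.6-fold in library 1 and 66.5-fold in library 2.

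The 3p arms of that cluster were higher than its 5p arms. miR-34c-3p had 3469 counts (158 CPM) in library 1 and 10341 (416 CPM) in library 2, on average 287 ± 183 CPM, and its rank among known miRNA entries was 36 in library 1 and 11 in library 2. miR-34b-3p had 2195 counts (99.9 CPM) in library 1 and 2201 (88.6 CPM) in library 2, on average 94.3 ± 7.96 CPM and rank 48. miR-34c-3p exceeded miR-34b-3p in both libraries, 1.58-fold in library 1 and 4.70-fold in library 2. By mean level, miR-34c-3p lay between miR-184-3p at 356 ± 239 CPM and miR-127-3p at 284 ± 47.4 CPM, and miR-34b-3p between miR-25-3p at 104 ± 30.3 CPM and miR-320-3p at 91.1 ± 42.3 CPM, in each case within the spread. miR-34c-3p was also below miR-449a-5p in both, at 416 against 451 CPM in library 2, where the gap was small beside the spread between libraries.

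The 3p arms of the Mir449 cluster were at the edge of detection. In library 1, 9 counts fell to miR-449c-3p and 9 to miR-449a-3p, and in library 2 these counts were 13 and 9. At 0.467 ± 0.0806 and 0.386 ± 0.0333 CPM, they ranked 424 and 445 of 525, and a difference between them was not detectable at this depth (0.187 to 0.778 CPM for each in library 1 by an exact Poisson interval). The other arms, miR-34a-3p and miR-449c-5p, and miR-449b have no listed entry and were not analysed here. The tables list an entry only where both libraries have at least 1 count, so no upper limit follows for them.

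**Figure D2:**
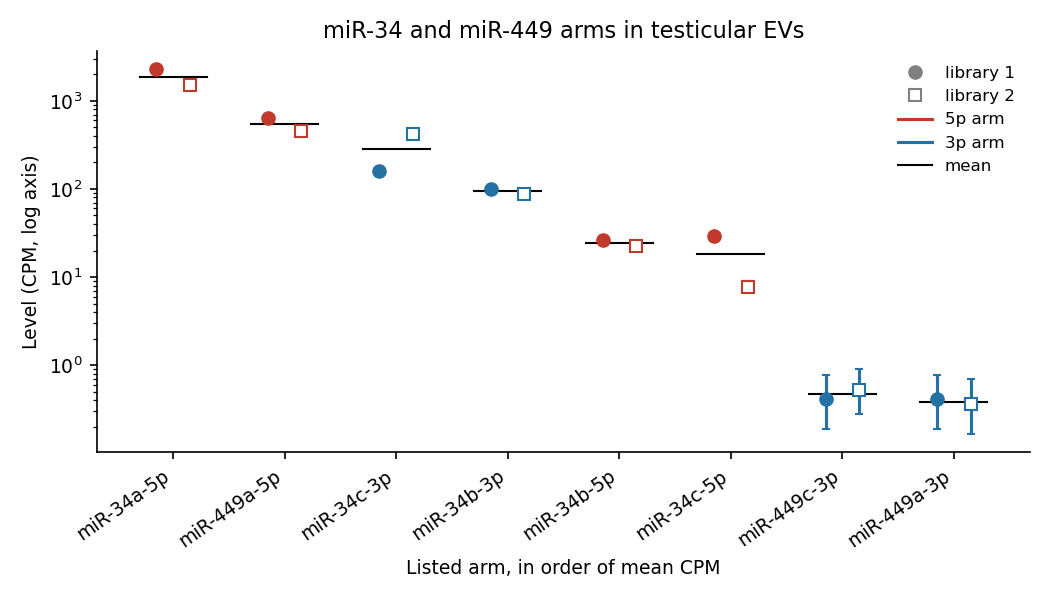
Level of each listed arm in CPM (log axis) in library 1 (filled circles) and library 2 (open squares), with the mean as a line and exact Poisson intervals as bars, which are hidden by the points at high counts. The means run from 1887 CPM for miR-34a-5p to 0.386 CPM for miR-449a-3p, and both arms of miR-34c have the widest gaps between the libraries.

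Summed by seed over the 436 known miRNA entries with a RefSeq sequence, which hold 90.6% of known miRNA counts in library 1 and 90.9% in library 2, GGCAGUG held place 3 of 353 seeds in both libraries. In sum, its 3 matched entries reached 2949 CPM (library 1) and 1968 CPM (library 2), with a mean of 2458 ± 694 CPM. miR-34c-5p, which has no RefSeq match, is not in this sum. The seed AUCACUA of miR-34b-3p and miR-34c-3p reached 258 CPM (library 1) and 505 CPM (library 2), with a mean of 381 ± 175 CPM, and its place was 15 in library 1 and 6 in library 2. The sum of the first seed was higher in library 1 and that of the second in library 2.

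Arm use set the hairpins apart. In miR-449a and miR-34c the 3p arm is listed as mature and the 5p arm as hairpin, whereas both arms of miR-34b are mature entries. Whether the type of an entry affects these shares was not tested. In miR-449a, the 3p arm held 0.0637% of both arms in library 1 (0.0291% to 0.121%) and 0.0803% in library 2 (0.0367% to 0.152%). Nearly every tag of the listed arms was thus of the 5p arm. The Rfam precursor entry named mir-449, described below, had 1961 counts in library 1 and 530 in library 2. These counts are outside the share, and which arm they belong to was not tested. In miR-34b, the 3p arm led with 79.0% in library 1 (77.4% to 80.5%) and 79.8% in library 2 (78.2% to 81.3%), and these intervals overlap. In miR-34c, the 3p arm led with 84.5% in library 1 (83.3% to 85.6%) and 98.2% in library 2 (97.9% to 98.4%), and these do not. The ratio of the 3p to the 5p arm of miR-34b was 3.75 in library 1 and 3.94 in library 2, and that of miR-34c was 5.44 and 53.9. With the arms of both hairpins summed, which leaves out any split of tags between them, the 3p share was 82.2% in library 1 (81.3% to 83.1%) and 94.4% in library 2 (94.0% to 94.7%). For miR-34a only the 5p arm is listed, and for miR-449c only the 3p arm, so their arm use was not analysed here.

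Among the 53 known miRNAs that have both arms listed and at least 1000 counts in all, 32 had a mean 3p share under 50%, as miR-449a did, and 21 a share over 50%, as miR-34b and miR-34c did. The leading arm was the same in both libraries in 53 of 53. The arms were listed under different types, mature and hairpin, in 32 of the 53. The 3p share changed between the libraries by a median of 0.865 percentage points. It changed by 0.0166 points in miR-449a, by 0.818 points in miR-34b and by 13.7 points in miR-34c, which by this measure came after miR-202 (-20.9 points) and miR-204 (-14.9 points). miR-871, with a 3p share of 7.72% in library 1 and 19.7% in library 2, and miR-342 (10.2 points) followed. A share near 0% or 100% can move by few points only, as in miR-449a with 9 counts of the 3p arm in each library. On the log2 odds scale, the change was 3.31 in miR-34c, place 2 of 53 after miR-143 (3.83), which was looked up after its value was seen and had 36 and 2 counts of its 5p arm in libraries 1 and 2. On that scale it was 0.33 in miR-449a and 0.07 in miR-34b, against a median size of 0.82, and miR-202 and miR-204 were at places 13 and 20. Of the 43 with both arms in RefSeq, the leading arm started with U in 24 and the minor arm in 11. In the family, miR-449a-5p leads with a first base U over a 3p arm that starts with C, whereas in miR-34b both arms start with A.

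**Figure D3:**
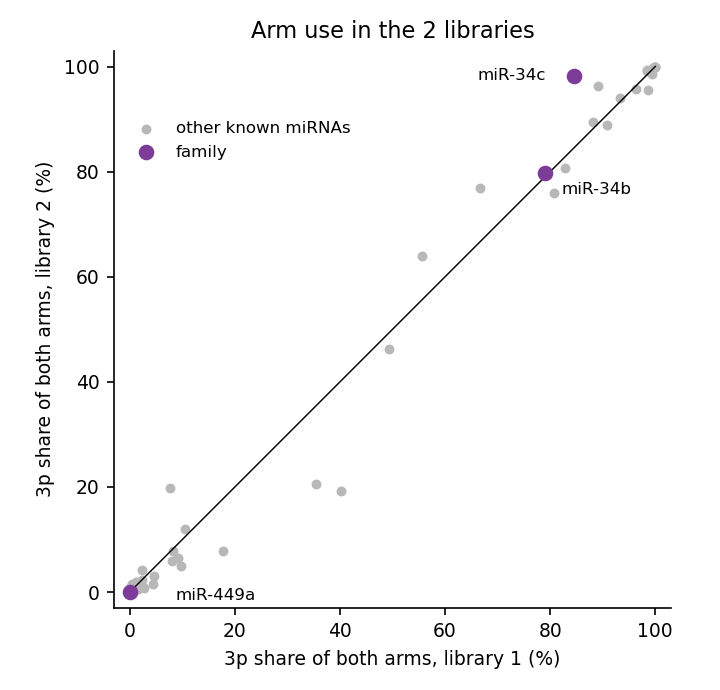
Share of the 3p arm in the counts of both arms (%), library 1 on the horizontal and library 2 on the vertical axis, for known miRNAs with both arms listed and at least 1000 counts in all; the line marks equal shares. miR-449a and miR-34b lie on the line and miR-34c above it, at 84.5% in library 1 and 98.2% in library 2.

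The libraries differed widely over all known miRNA, and the arms were read against that spread. Of 433 known miRNA entries whose mean count was 10 or more, 35.1% were over 2-fold apart between the libraries, with 6.47% higher in library 2 and 28.6% lower. Of the 7 family entries that reach this minimum, 2 were over 2-fold apart, both of miR-34c, which is not above that background. The median log2 ratio of library 2 over library 1 was -0.24 over these 7 entries and -0.45 over the 433. The 4 abundant arms of the family were compared with entries of like depth. Of 73 known miRNA entries whose mean count was 1000 or more, 12.3% were over 2-fold apart, 1.37% higher in library 2 and 11.0% lower.

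Among these 73 entries, the ratios of miR-34a-5p (-0.61) and miR-449a-5p (-0.51) lay near the median of -0.45, and miR-34b-3p (-0.17) was place 13 from the highest. miR-34c-3p had the highest ratio, 1.40 (counting interval 1.34 to 1.46), and was the only one of the 73 over 2-fold higher in library 2. The next was miR-30b-5p at 0.43. The other arm, miR-34c-5p, went the opposite way, with -1.91 (-2.15 to -1.67). Of the 53 miRNAs with both arms and at least 1000 counts in all, miR-34c was the only one whose arms were over 2-fold apart in opposite directions, or 1.89%. This depends on both limits, since the count was 4 at a limit of 1.5-fold and 8 over all 115 miRNAs with both arms listed. A common scaling moves all log2 ratios alike and cannot change their order, but it can move an entry across a fold limit. Under each scaling tried, the count of miRNAs with arms over 2-fold apart in opposite directions was 1.

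**Figure D4:**
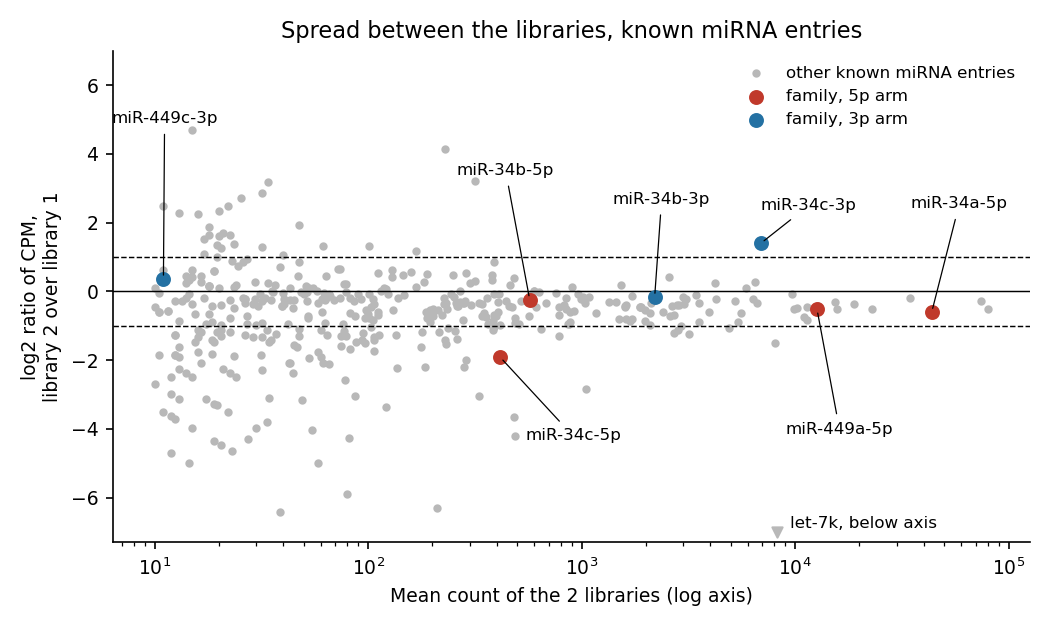
Log2 ratio of CPM, library 2 over library 1, against mean count (log axis) for known miRNA entries whose mean count was 10 or more; dashed lines mark 2-fold, and let-7k lies below the axis. miR-34c-3p at 1.40 stands above all other entries of at least 1000 counts, while miR-34a-5p at -0.61 and miR-449a-5p at -0.51 lie among them.

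The cluster partner did not show this pattern. miR-34b-3p (-0.17, interval -0.26 to -0.09) and miR-34b-5p (-0.24, -0.41 to -0.07) differed by less than 1.5-fold between the libraries, and their small negative ratios turn positive, to 0.31 and 0.23, when levels are taken per known miRNA count. With both arms summed, Mir34c reached 187 CPM (library 1) and 424 CPM (library 2) and Mir34b 127 and 111 CPM, although the hairpins are 451 bases apart. Among known miRNA entries whose mean count was 100 or more, those with ratios nearest to that of miR-34c-3p were miR-351-5p (1.32), miR-17-5p (1.17) and miR-871-3p (0.84), compared over 2 libraries. At this lower minimum miR-34c-3p was not the highest, since miR-669f-5p (4.13) and miR-743b-3p (3.22) lay above it. Nearest to miR-34c-5p were miR-378b (-1.98), miR-92b-3p (-1.73) and miR-484 (-1.62). With 1 library on each side of these ratios, the difference between the libraries was not tested.

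Several values differ between the libraries beside these arms, and their part in the results was not tested. Library 2 had more listed counts, 24829208 against 21970654 in library 1, and fewer counts of known miRNA. Of 7 miRNAs listed for red blood cells, leukocytes, liver and striated muscle, 7 were found, and they summed to 673 CPM (library 1) and 385 CPM (library 2), of which miR-451a alone had 629 and 357 CPM. The other entries of that list went both ways. From library 1 to library 2, miR-122-5p fell from 8.37 to 3.50 CPM, miR-144-3p from 4.01 to 1.65 and miR-133a-3p from 4.32 to 2.78. By contrast, miR-1a-3p, of striated muscle, rose from 2.41 to 3.83 CPM (53 and 95 counts). Of the leukocyte entries, miR-142a-3p rose from 2.05 to 2.30 CPM (45 and 57 counts), while miR-142a-5p fell from 1.18 to 0.282. Likewise, miR-223-5p rose from 0.637 to 0.765 CPM (14 and 19 counts), while miR-223-3p fell from 20.8 to 13.0. Each family entry is listed under 1 type, 4 as mature and 4 as hairpin. The abundant arms miR-34a-5p and miR-449a-5p are hairpin entries, as is miR-34c-5p, while both arms of miR-34b and miR-34c-3p are mature entries. The median log2 ratio was -0.49 for hairpin and -0.41 for mature entries of known miRNA.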

How the data were processed

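Small RNA of testicular EVs was sequenced on the BGISEQ-500 platform in 2 libraries. The authors' methods state that reads of low quality were discarded, that Bowtie2 (also named in the submitters' processing notes) and cmsearch were used for mapping, and that each tag went to only 1 database, miRBase first. For tool versions and the genome build, nothing is given in the sources used here. The deposited tables hold a whole-number count per entry, not normalized. They also hold TPM values that the authors scaled to a tag total of about 23442804 in library 1 and 26168747 in library 2, without length correction, so their unit is RPM.

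CPM, ratios, arm shares and Clopper-Pearson or Poisson intervals were computed from the counts with SciPy 1.17.1, pandas 2.3.3 and NumPy 2.4.6, and figures with matplotlib 3.10.9. The code was checked on simulated counts with planted changes and counting error alone, which does not test the results against the spread between real libraries. Alternatives were the deposited TPM values, pooled counts, TMM (edgeR 4.0.16) and DESeq2 1.42.0 size factors in R 4.3.3, other denominators, count minimums and entry sets, and each library left out. RefSeq and GENCODE M21 gave sequences and gene context.

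The family, the entries named and the minimums were chosen with earlier results of these data known. The text names all family entries, their Rfam precursor entry, entries sharing a seed, neighbours by level (not for the pair under 20 counts), the 3 entries nearest in ratio to an arm over 2-fold apart, and the 5 largest changes in 3p share. The minimum of 1000 counts for ratios and the summed Mir34b and Mir34c arms were added after seeing the data, as were miR-30b-5p, miR-143, miR-669f-5p and miR-743b-3p.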

Additional observations from a re-analysis of the deposited data

Results flagged for a closer look

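An Rfam precursor entry named mir-449 lies outside the mature and hairpin entries used above and had 1961 counts in library 1 and 530 in library 2, above the 3 counts that a count of 0 would allow. This is 89.3 and 21.3 CPM, a log2 ratio of library 2 over library 1 of -2.06, against a median of -0.81 over the 90 precursor entries, where it was place 13 from the lowest. It amounts to 13.9% of the counts of miR-449a-5p in library 1 and 4.73% in library 2. Which tags or species it holds was not tested.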

How the results depend on the processing

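No paired analysis was possible because the 2 libraries form a single group. Apart from settings with 1 library, 129 recomputed values were compared with the reported ones, and 101 stayed the same. For levels and shares this meant within the spread of the libraries, and for log2 ratios the same sign and side of the limit. For ranks and counts of entries or miRNAs it meant within 1.5-fold of the reported value. The level of every arm moved when taken per known miRNA count or per annotated count, because these denominators are smaller. The number that stayed the same therefore depends in part on the settings chosen. The family sum is 106713 per 1000000 known miRNA counts and 10909 per 1000000 annotated counts, which follows from the smaller denominators, and 406 CPM with entries of type mature only, which drops miR-34a-5p and miR-449a-5p. With predicted miRNA entries in the denominator, the family's share was 7.04%. The count of known miRNA entries over 2-fold apart, 152 at a mean count of at least 10, was 41 at a minimum of 100, 9 at a minimum of 1000, which was added after seeing the data, and 236 at a limit of 1.5-fold. Scaling moved every log2 ratio by -0.19 (TMM), -0.18 (DESeq2), 0.48 (per known miRNA count) or 0.05 (per annotated count). Of 40 ratios under these and the deposited TPM values, 37 kept their sign, and the exceptions are miR-34b-3p, miR-34b-5p and miR-449a-3p (0.30), each per known miRNA count. miR-34c-3p stayed between 1.21 and 1.88 and miR-34c-5p between -2.09 and -1.43. Chosen after seeing the data, the count of miRNAs with arms over 2-fold apart in opposite directions was 1 under each scaling, 4 at 1.5-fold and 8 over all 115 miRNAs with both arms listed. Depth limits miR-449a-3p and miR-449c-3p, with at most 13 counts.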
